A study of Mus musculus with 10 samples.

Results

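Hepatocyte growth factor (Hgf), its receptor Met, 3 serine proteases that cut the factor into its active form (Hgfac, Hpn and St14) and 2 inhibitors of those proteases (Spint1 and Spint2) were followed in mouse liver. These 7 genes were taken by symbol from a table of 17274 genes, and all 7 were among the 12053 genes with enough expression to be tested. The set was selected on the FPKM difference between the groups, which was known when it was proposed. The differences of these 7 genes between the groups are therefore given as a description, with no test.

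The 10 samples, each called a liver here, were liver tissue of wild-type mice, all with nonalcoholic steatohepatitis brought on by a high-fat diet that lacked choline and supplied defined amino acids (CDAHFD). In 5 samples the mice had received a control AAV (a vector built from adeno-associated virus) by vein, and in the other 5 an AAV encoding miR-181d-5p. No liver without the diet or without a vector was analysed here, and strain, age, vector dose, promoter and time of harvest are not given in the sources used here. Nothing in the labels says that each sample came from a separate mouse, so a p-value here covers the variation among samples alone, which may be technical. Libraries held 18985912 to 20657019 reads. Levels are FPKM, fragments scaled by gene length and library total, so they can be compared between genes.

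Hepatocyte growth factor is secreted by non-parenchymal cells of the liver, chiefly stellate and endothelial cells, as an inactive single chain that is held by matrix and cell-surface heparan sulfate. Proteolytic cleavage turns it into a disulfide-linked heterodimer, which binds the tyrosine kinase Met on hepatocytes and other epithelia and drives survival, motility and regeneration. Hgfac encodes a secreted activator made by hepatocytes, Hpn encodes hepsin and St14 encodes matriptase, both anchored in the membrane, and Spint1 and Spint2 encode transmembrane Kunitz-type inhibitors (HAI-1 and HAI-2) that hold these enzymes in check.

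The vector delivered a microRNA, which pairs with messages through its seed (bases 2 to 8), so the sequences that bear on the 7 genes are shown first. The mature members of the miR-181 family in the RefSeq table (GRCm38.p6) follow, 5′ to 3′, with the seed in capitals. They show that the delivered miR-181d-5p shares its seed with the other 3.
mmu-miR-181a-5p: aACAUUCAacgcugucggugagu
mmu-miR-181b-5p: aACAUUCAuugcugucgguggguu
mmu-miR-181c-5p: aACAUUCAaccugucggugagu
mmu-miR-181d-5p: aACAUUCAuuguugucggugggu

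The longest annotated 3′ UTR of each gene (GENCODE vM21, the same build as the mm10 of the authors) was searched on the sense strand for the 8mer TGAATGTA, the 7mer-m8 TGAATGT, the 7mer-A1 GAATGTA and the 6mer GAATGT, which is contained in the other 3. Met held the 1 match of at least 7 bases among the 7 genes, and Spint2 held a 6mer. The matches are given below on the mRNA strand with the matched bases in capitals.
Met, 7mer-m8: ttctgatctaaTGAATGTggacatttaaa
Spint2, 6mer: ggattctgaaaGAATGTgtttaataaag

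The capitals of the Met match lie at chr6:17572755-17572761 on the plus strand, in the 3′ UTR part of exon 22 of 22 of transcript Met-203, starting at base 932 of a 3′ UTR of 2157 nt. Transcript Met-202, with a 3′ UTR of 406 nt, held no match there. The capitals of the Spint2 match lie at chr7:29256371-29256376 on the minus strand, in the 3′ UTR part of exon 7 of 7 of Spint2-201. Hgf held none of the 4 motifs in any of its 3 annotated 3′ UTRs, the longest of 1159 nt, and no 7-base match anywhere in its annotated coding transcripts. Hgfac, Hpn, St14 and Spint1 held none in their 3′ UTRs. Over whole transcripts, St14-201 held 1 match of at least 7 bases outside its 3′ UTR, Met-202 held 2, and Met-203 held 3 with the one shown included. These counts add the hits of both 7mers, so an 8mer counts as 2, and the 2 of Met-202 may be 1 site. No such match was found in any transcript of Hgfac, Hpn, Spint1 or Spint2. An 8mer or a 7mer was present in 23.0%, and the 6mer in 35.5%, of the 3′ UTRs of 11770 tested genes. Among the 1861 3′ UTRs of 0.8 to 1.25 times the length of that of Hgf the share with an 8mer or a 7mer was 21.5%, and among the 1878 in the same window around that of Met it was 33.0%. A match is a description of the letters, and which 3′ UTR ends the livers use is not known from these data.

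Hgf, the ligand, lies at chr5:16553495-16620152 on the plus strand (GENCODE gene ENSMUSG00000028864.7). Its level in the control livers was 11.95, 13.7, 9.22, 10.4 and 10.8 FPKM for replicates 1 to 5. In the miR-181d-5p livers it was 6.63, 6.57, 7.53, 5.91 and 7.78 FPKM. Every miR-181d-5p liver lay below every control liver, with control liver 3 and miR-181d-5p liver 5 closest to each other. The means were 11.2 ± 1.68 and 6.88 ± 0.763 FPKM (SD, n = 5 each), so the miR-181d-5p mean was 61.4% of the control mean. The log2 change (of FPKM + 1, miR-181d-5p minus control) was -0.63 (SE 0.10), and 45 of the 12053 genes tested had a lower value. These levels rest on 323 to 749 reads per liver.

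Among the 7 genes, Hgf was the 1 whose groups did not overlap. Across all genes tested, the groups did not overlap in 2.47% (1.45% lower and 1.02% higher), and nothing is read from the count of members since the set was chosen with these values known. By limma on log2(FPKM + 1), 0 of 12053 genes (0.0%) passed an adjusted p of 0.05. This is given as background and not as a test of the 7 genes. Without adjustment, 1768 genes (14.7%) had a p under 0.05, of which 1161 (9.63% of those tested) were lower and 607 (5.04%) higher. After quantile normalization that split was 942 lower and 997 higher. With voom on recovered reads limma called 0 genes (1741 unadjusted), and with sample quality weights it called 2, Inhbb and Jdp2 (1950 unadjusted).

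**Figure D1:**
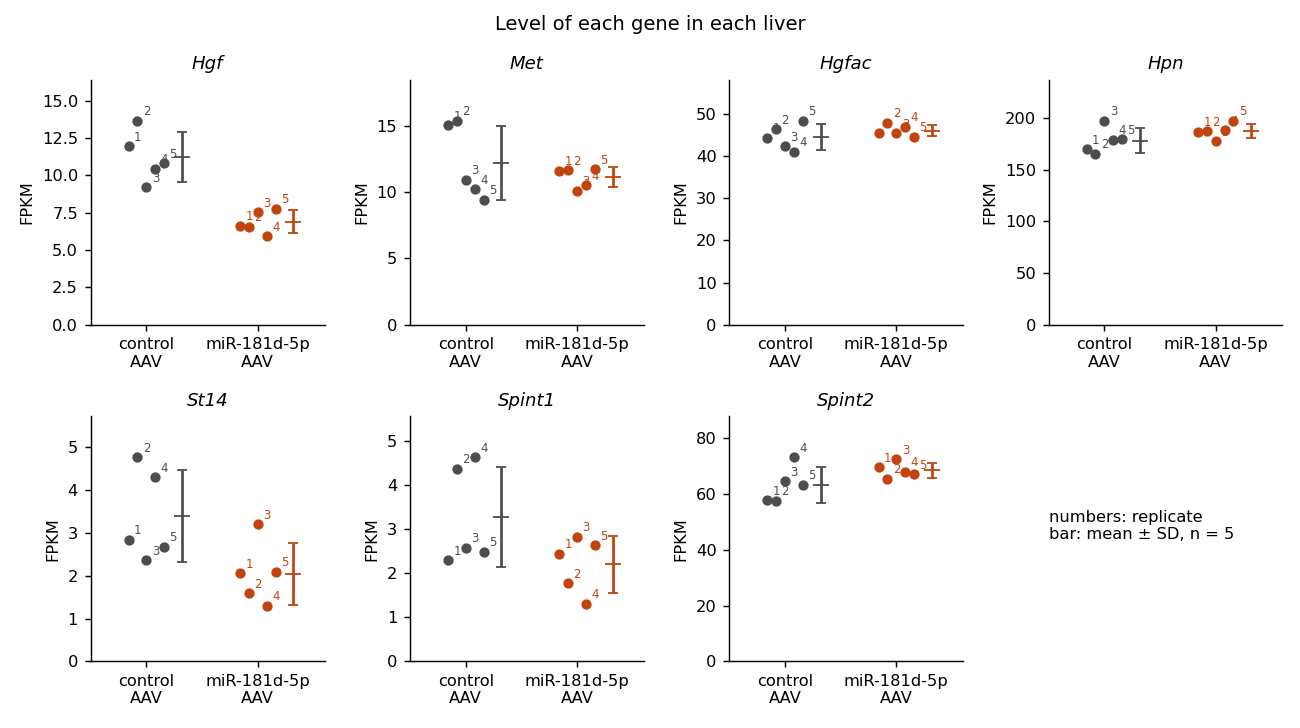
Level of each of the 7 genes (FPKM, linear axes from 0) in each liver, by group; numbers give the replicate, and bars give the mean and SD of 5 livers. The groups are apart in Hgf, with all miR-181d-5p livers at or below 7.78 FPKM and all control livers at or above 9.22, and they overlap in the other 6 genes.

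Met, the receptor, lies at chr6:17463800-17573980 on the plus strand. Its level was 15.05, 15.4, 10.9, 10.2 and 9.42 FPKM in control livers 1 to 5, and 11.6, 11.7, 10.1, 10.5 and 11.7 FPKM in miR-181d-5p livers 1 to 5. Control livers 1 and 2 stood above the other 8 livers, and the miR-181d-5p livers lay inside the control range. The means were 12.2 ± 2.81 and 11.1 ± 0.756 FPKM (SD, n = 5 each), a log2 change of -0.10 (SE 0.13). Without control liver 2 it was -0.015, and without control liver 1 it was -0.023.

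The values of Met were set beside a measure of gene length in each library. The slope of each liver's log2 levels on log2 gene length, taken relative to the mean of the 10 livers, was 0.119 in control livers 1 and 2, and -0.099 in control liver 5, where Met was lowest. The other 7 livers lay between -0.037 and 0.009. Met was counted over 6901 nt, as recovered from the FPKM. The deviations of Met from the group means had, with the deviations of this slope over the 10 livers, a Pearson r of 0.945 (exact permutation within groups, two-sided p = 0.00826) and a Spearman rho of 0.927 (exact permutation p = 0.00604). Adjusted over the 7 genes, the p of the Pearson r was 0.0578 (Benjamini-Hochberg over exact permutation tests), so r did not pass. The p of rho was not adjusted, so no call by rho is made. Without control livers 2 and 5, whose deviations of the slope lay farthest from the median deviation, r was 0.892. Control liver 1, with a slope of 0.119, stayed in. The relation of Hgf to the slope had an r of 0.668 and a rho of 0.685 (exact permutation p = 0.0822 and 0.0562, adjusted p = 0.288 for r) and did not pass, with an r of 0.731 without the same 2 livers. With the length trend removed from each liver, the log2 change was -0.02 (SE 0.09) for Met and -0.63 (SE 0.10) for Hgf. The slope was examined after the values of Met had been seen, and its part in the spread of Met and Hgf was not tested further.

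Ligand and receptor stood at similar levels in control livers and apart in miR-181d-5p livers. The ratio of Hgf to Met was 0.794, 0.887, 0.843, 1.02 and 1.15 in control livers 1 to 5. In miR-181d-5p livers 1 to 5 it was 0.571, 0.564, 0.745, 0.562 and 0.662. Hgf exceeded Met in control livers 4 and 5 and in no miR-181d-5p liver. The means of the ratio were 0.938 ± 0.144 and 0.621 ± 0.0814 (SD, n = 5 each), and the groups did not overlap. A ratio within a liver is free of the library total, and this one uses the difference in Hgf already described. It is not free of the length slope, since Hgf was counted over 2868 nt and Met over 6901. Among control livers the ratio was highest in liver 5, with a slope of -0.099, and lowest in liver 1, with 0.119. The part of the slope in the ratio was not tested.

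**Figure D2:**
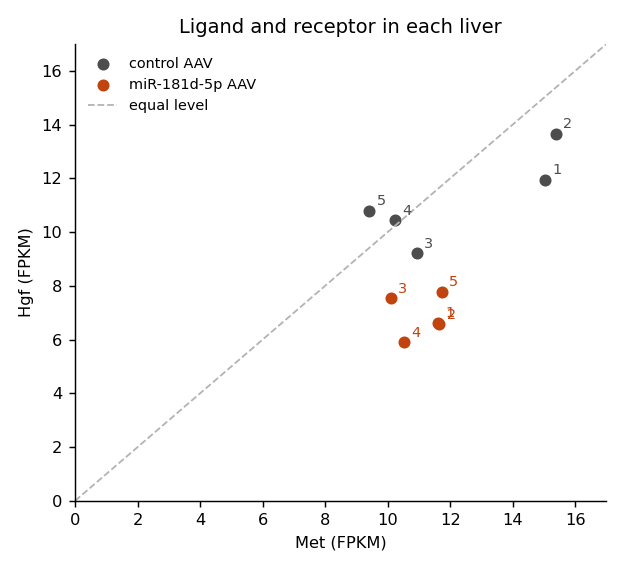
Hgf against Met (both FPKM, linear axes) in each of the 10 livers, numbered by replicate, with the line of equal level dashed. The miR-181d-5p livers lie below the line at 5.91 to 7.78 FPKM of Hgf, while control livers 4 and 5 lie above it.

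Hgfac encodes hepatocyte growth factor activator, a protease secreted by hepatocytes, and lies at chr5:35041509-35048461 on the plus strand. It ranged from 41.0 to 48.4 FPKM (median 44.4) in control livers and from 44.6 to 47.8 FPKM (median 45.4) in miR-181d-5p livers. The miR-181d-5p values lay inside the control range, and the log2 change was 0.05 (SE 0.06). Hpn, at chr7:31098725-31115290 on the minus strand, encodes hepsin, a membrane protease abundant in hepatocytes. It was the most abundant of the 7, at 170, 166, 198, 179 and 179 FPKM in control livers 1 to 5 and 187, 187, 178, 188 and 198 FPKM in miR-181d-5p livers 1 to 5. The groups overlapped, with control liver 3 level with miR-181d-5p liver 5, and the log2 change was 0.07 (SE 0.07). Their miR-181d-5p means were 103.4% and 105.2% of control for Hgfac and Hpn.

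St14 encodes matriptase, a membrane protease of epithelia, and lies at chr9:31089402-31131853 on the minus strand. It stood at 2.83, 4.76, 2.35, 4.30 and 2.67 FPKM in control livers 1 to 5, and at 2.06, 1.59, 3.19, 1.30 and 2.09 FPKM in miR-181d-5p livers 1 to 5. Control livers 2 and 4 were high, and miR-181d-5p liver 3 was the 1 liver of its group inside the control range. The means were 3.38 ± 1.07 and 2.05 ± 0.723 FPKM (SD, n = 5 each), 60.5% of control, with a log2 change of -0.52 (SE 0.18). St14 rests on 110 to 405 reads per liver.

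Spint1 encodes HAI-1, the inhibitor that binds matriptase and the growth factor activator, and lies at chr2:119237362-119249527 on the plus strand. It stood at 2.29, 4.37, 2.58, 4.63 and 2.49 FPKM in control livers 1 to 5, and at 2.44, 1.78, 2.82, 1.31 and 2.63 FPKM in miR-181d-5p livers 1 to 5. As for St14, control livers 2 and 4 were high and miR-181d-5p liver 4 was lowest. Control livers 1, 3 and 5 lay among the miR-181d-5p livers. The means were 3.27 ± 1.13 and 2.196 ± 0.635 FPKM (SD, n = 5 each), 67.2% of control, with a log2 change of -0.40 (SE 0.18). Without control liver 4 it was -0.29 and without miR-181d-5p liver 4 also -0.29, and the lowest library held 59 reads.

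Spint2, at chr7:29256323-29281912 on the minus strand, encodes HAI-2, which inhibits hepsin and matriptase. It was 57.7, 57.6, 64.5, 73.1 and 63.2 FPKM in control livers 1 to 5, and 69.5, 65.3, 72.3, 67.8 and 67.0 FPKM in miR-181d-5p livers 1 to 5. Control liver 4 was the highest of all, and without it the other 4 control livers lay below every miR-181d-5p liver. The log2 change was 0.12 (SE 0.07). The 2 inhibitors thus had differences of opposite sign, and Spint2 was 19.3 times as abundant as Spint1 in control livers.

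**Figure D3:**
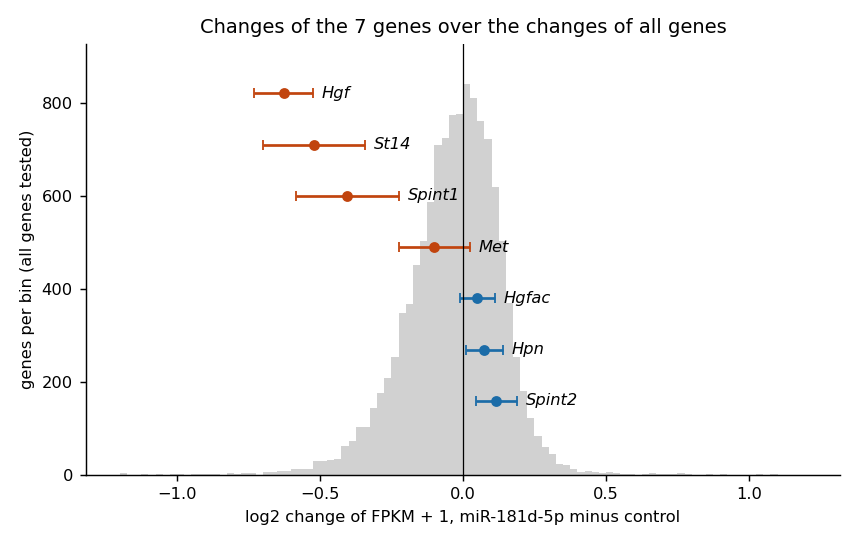
Log2 change of FPKM + 1 (miR-181d-5p minus control) of the 7 genes, points with bars of 1 SE, over a histogram of the changes of all 12053 genes tested; values beyond 1.2 in size are drawn at the edges. Hgf at -0.63, St14 at -0.52 and Spint1 at -0.40 lie in the lower tail, below the 2.5th percentile of all genes at -0.39, and the other 4 lie within its bulk.

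The order of levels was Hpn, Spint2, Hgfac, Met, Hgf, St14 and Spint1 in control livers. Hpn was 2.82 times Spint2, Spint2 was 1.42 times Hgfac, and Hgfac was 3.64 times Met, with no overlap between these neighbours over 5 livers. Met and Hgf overlapped in their ranges, as did St14 and Spint1, so these neighbours did not differ beyond their spread. In miR-181d-5p livers Met was 1.62 times Hgf with no overlap, and Spint1 and St14 again overlapped and had changed places. Hpn, Spint2 and Hgfac lay above ligand and receptor in every liver of both groups.

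Spread between livers separated the genes as well. The SD of log2(FPKM + 1) among control livers was 0.094 for Hgfac and 0.098 for Hpn, against 0.345 for St14 and 0.371 for Spint1. Over all genes tested its median was 0.170 in control livers and 0.106 in miR-181d-5p livers. St14 and Spint1 were as variable in miR-181d-5p livers (0.328 and 0.305), while Met went from 0.302 to 0.091.

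Deviations from the group means do not use the difference between the groups, so they were tested. Of the 21 pairs among the 7 genes, matriptase and its inhibitor passed by Pearson r. The tests of these 21 pairs were added after the data were seen. The p-values of rho among these pairs were not adjusted, so no call by rho is made. St14 and Spint1 had a Pearson r of 0.916 over 10 livers (exact permutation within groups, two-sided p = 0.00160, adjusted p = 0.0335 over 21 pairs) and a Spearman rho of 0.867 (exact permutation p = 0.00646). Without control liver 4 and miR-181d-5p liver 4, whose deviations of Spint1 lay farthest from the median deviation, r was 0.891. The ratio of St14 to Spint1 stayed between 0.794 and 1.24 in the 10 livers. Hgf and Met had an r of 0.608 and a rho of 0.491 (exact permutation p = 0.131 and 0.220, adjusted p = 0.437 for r), and r was -0.216 without control livers 1 and 2, so that relation rested on those livers. Spint2 ran opposite to Met, with an r of -0.764 and a rho of -0.842 (exact permutation p = 0.0589 and 0.0173), and did not pass (adjusted p = 0.385 for r). Without control livers 2 and 4 that r was -0.779.

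The same deviations were set against the mean of each of 8 lists of cell type markers, 56 pairs in all. St14 followed the markers of cholangiocytes, the cells that line bile ducts. Over 12 tested markers r was 0.951 and rho 0.939 (exact permutation within groups, two-sided p = 8.33e-04 and 0.00181, adjusted p = 0.0467 and 0.101 over 56 pairs). The call thus passed by Pearson and not by Spearman. Without miR-181d-5p livers 3 and 4, whose deviations of the marker mean lay farthest from the median deviation, r was 0.926. Over 16 alternatives r ran from 0.926 to 0.972, and the adjusted p from 0.0117 to 0.194. The call was lost in 8 of the 10 fits that left out a liver, where fewer orderings are possible, and with median of ratios size factors (adjusted p = 0.0622 by exact permutation). It held without control liver 1 and without control liver 5. Spint1 had an r of 0.878 and a rho of 0.879 with these markers (exact permutation p = 0.00271 and 0.00472) and did not pass (adjusted p = 0.0758 for r). Its r was 0.884 without the same 2 livers. Spint1 stood nearly as close to macrophage markers, with an r of 0.831 and a rho of 0.855 (exact permutation p = 0.0138 and 0.0117, adjusted p = 0.23 for r), and r was 0.858 without control liver 1 and miR-181d-5p liver 2. St14 had an r of 0.765 and a rho of 0.745 with the macrophage markers (exact permutation p = 0.0267 and 0.0256, adjusted p = 0.23 for r), and 0.854 without those 2 livers. Neither passed.

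Cholangiocyte markers themselves were lower in 12 of 12 tested members, with a median log2 change of -0.48 against -0.02 for all genes tested, and none passed. Their summed level ran from 675 to 990 FPKM in control livers and from 624 to 791 FPKM in miR-181d-5p livers, overlapping and mostly from Krt8, a keratin that hepatocytes express too. Cftr lay below the filter, at a mean of 0.487 FPKM. No marker was at 0 in all livers, and Krt7, a duct keratin named after its values were seen, stood at 4.88 ± 1.31 and 3.26 ± 1.01 FPKM (SD, n = 5 each). In bulk liver, fewer cells of a type and less RNA per cell cannot be told apart. The part of these cells in the lower St14 and Spint1 was not tested.

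**Figure D4:**
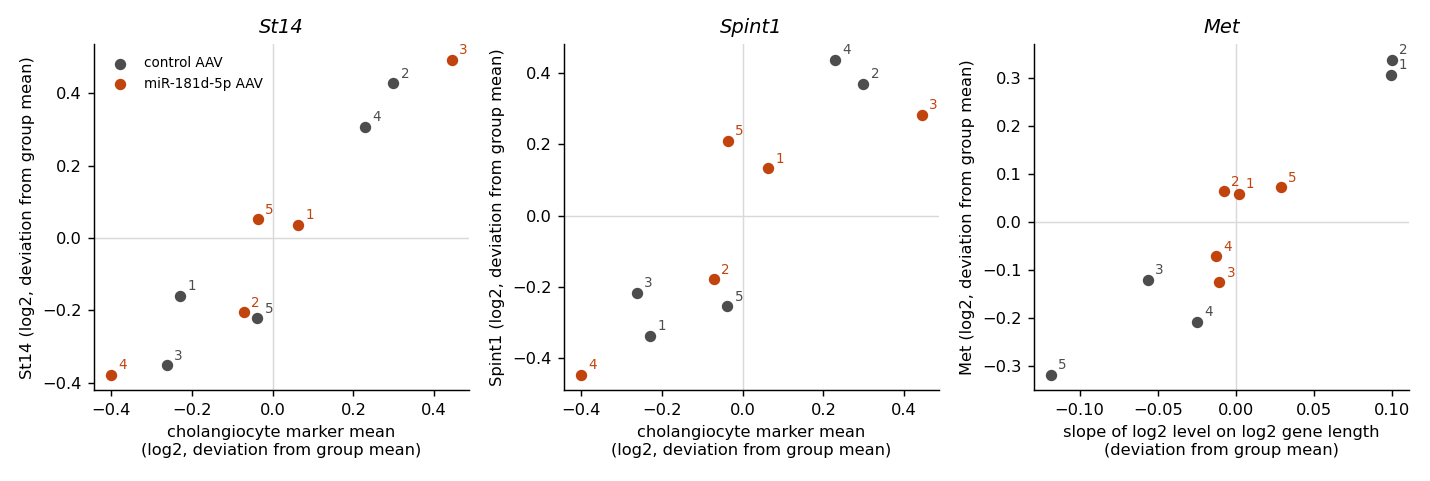
Deviation from the group mean of log2(FPKM + 1) for St14 and Spint1 against that of the mean of 12 cholangiocyte markers, and for Met against the deviation of the slope of log2 level on log2 gene length; each point is a liver, numbered by replicate. Points rise from lower left to upper right in all 3 panels, with r of 0.951, 0.878 and 0.945.

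Markers of the cells that make the ligand were set beside Hgf. Stellate cell and fibroblast markers were lower in 17 of 18 tested members, with a median log2 change of -0.23. Their summed level ran from 384 to 500 FPKM in control livers and from 303 to 377 FPKM in miR-181d-5p livers, and the groups did not overlap in this sum. Most of the sum came from Col3a1, Ecm1 and Col1a1. In the mean of log2(FPKM + 1), where each marker counts equally, the groups overlapped. Relative to the control mean, control liver 3 stood at -0.166 and miR-181d-5p liver 3 at -0.151. None of the 18 markers passed or had a log2 change as low as that of Hgf, the lowest being -0.505 for Col1a1. Hgf per 1000 FPKM of these summed markers was 21.6 to 32.4 in control livers and 17.7 to 22.2 in miR-181d-5p livers. The means were 25.9 ± 4.94 and 19.7 ± 1.66 (SD, n = 5 each). Here the groups overlapped through miR-181d-5p liver 5 at 22.2, and the rest of its group lay below every control liver. The part of stellate cell content in the lower Hgf was not tested.

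Sinusoidal endothelial markers were lower in 11 of 17, with a median of -0.08, and their sums overlapped (276 to 314 and 273 to 297 FPKM). Hepatocyte markers were higher in 11 of 15, with a median of 0.06, and Alb stood at 22375 ± 1562 and 22982 ± 1299 FPKM (SD, n = 5 each). The deviations of Hgf had an r of 0.419 with stellate markers and 0.617 with sinusoidal markers (rho 0.418 and 0.661). Neither passed (exact permutation p = 0.283 and 0.0908, adjusted p = 0.635 and 0.375 for r). Without the 2 livers whose deviations of the marker mean lay farthest from the median deviation, r was -0.314 and 0.196. Markers of macrophages (10 tested), neutrophils (7), lymphocytes (7) and mesothelium (4) had median log2 changes of -0.19, -0.07, -0.22 and -0.25, with no pass and no call with any of the 7 genes.

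The genes most like each of the 7 were found by the Pearson r of deviations from the group means over 10 livers among 10796 genes. For Hgf they were Pgap1 (r = 0.966), Notch1 (0.960), Myo1e (0.952), Rsf1 (0.946) and Ahnak (0.940). They were counted over 10579, 9489, 4697, 11129 and 19051 nt, in that order. Of these, Ahnak, a giant scaffold protein, had the lowest log2 change, -0.51, and Notch1, a receptor of cell-to-cell signalling, -0.27, while Rsf1 and Pgap1 stood at -0.12 and -0.15. Met was most like Insr, the insulin receptor (r = 0.979), Daam1 (0.976) and Ganc (0.974). These were counted over 9391, 7436 and 4818 nt. St14 was most like Tmem45a (0.983), Scara3 (0.979) and Reck (0.973), and Spint1 most like Eln, which encodes elastin (0.966), Tmem45a (0.958) and Hpse, which encodes heparanase (0.946).

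Hepsin was most like Chkb, a choline kinase (0.926), Plin2, a lipid droplet coat protein (0.925), and Pnpla2, the triglyceride lipase ATGL (0.905). Hgfac was most like the replication factor Cdc45 (0.918), then Dsg1c (0.904) and Nrm (0.902). Spint2 was most like Ilkap (0.957), Anxa5 (0.948) and Arfrp1 (0.947). These values rank genes over the same 10 libraries and carry no p.

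Other genes of the pathway were taken from 7 lists with 101 tested genes, and none passed over all genes by limma. Without adjustment, 21 had a p under 0.05. Of the 101, 73 were lower and 28 higher (72.3% lower, against 54.5% of all genes tested), with a median log2 change of -0.10. The number lower ran from 64 with the gene length trend removed to 80 with FPKM rescaled to a common sum. The median log2 change of all genes tested moved too, to 0.005 and -0.041 in these 2 settings, against -0.018 in the main fit. The 54.5% belongs to the main fit alone. Groups did not overlap in 7 of them (6.93%), 5 lower and 2 higher, against 2.47% of all genes. The lists were chosen with earlier results of these data known, so these shares are a description and no excess over all genes is read from them.

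The list of other activators, inhibitors and binding partners of the ligand split into 9 higher and 9 lower, with a median of 0.00. Cd44, a hyaluronan receptor that can present the factor to Met, was 15.9, 18.5, 17.6, 18.4 and 18.5 FPKM in control livers 1 to 5 and 13.8, 12.5, 14.8, 10.2 and 14.2 FPKM in miR-181d-5p livers 1 to 5. The groups did not overlap, and limma gave a log2 change of -0.42 (SE 0.09, adjusted p = 0.221). Thbs1, a matricellular protein, had the largest difference of the list at -1.25 (SE 0.40, adjusted p = 0.240 by limma), with 47.7 FPKM in control liver 5 and at most 13.3 in the other control livers. Without that liver the log2 change was -0.79 (SE 0.17). Plat, the tissue plasminogen activator, had a log2 change of -0.47 and Dcn, a proteoglycan that binds Met, of -0.30. The circulating proteases of hepatocytes, named after their values were seen, did not pass: F2 (prothrombin, whose active form cleaves the activator zymogen) had 0.14, F12 0.09, Klkb1 0.09 and Plg 0.09, each on the log2 scale. Plau, the urokinase that can also cleave the factor, had -0.22 (SE 0.20).

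Co-receptors of Met were lower in 10 of 11 tested members, with a median of -0.21. They were counted over 2445 to 14943 nt. Lrp1, the longest and named after its values were seen, stood at 81.6 and 89.9 FPKM in control livers 1 and 2. It was 45.6 to 52.5 FPKM in control livers 3 to 5 and 44.7 to 54.1 FPKM in miR-181d-5p livers. The part of gene length in this list was not tested. Itgb4, the beta 4 integrin subunit, stood at 0.889 ± 0.298 and 0.460 ± 0.119 FPKM (SD, n = 5 each), and Itgb1 at 91.1 ± 2.99 and 80.4 ± 6.64 FPKM, without overlap in Itgb1. The semaphorin receptors Nrp1 and Nrp2 had log2 changes of -0.23 and -0.25, and that of Nrp1 was -0.14 without miR-181d-5p liver 4. None of the 4 passed by limma (adjusted p = 0.235, 0.276, 0.362 and 0.332, in that order).

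Of 33 adaptors and downstream kinases 24 were lower, and the median was -0.04, against -0.02 for all genes. Gab2, a docking protein, was at 71.4% of control, Src at 80.3%, Pak1 at 85.3% and Stat3 at 86.5%. Gab1, the docking protein that binds Met directly, and the adaptor Grb2 had log2 changes of -0.07 (SE 0.08) and -0.11 (SE 0.07); they were picked with their values known. Of 20 genes that restrain the receptor, 18 were lower, and the median was -0.21. These 20 were counted over 1340 to 14366 nt, and the part of gene length was not tested here either. Among these brakes the ubiquitin ligase Cblb was at 75.1% of control, the feedback inhibitors Spry1 and Spry2 at 74.0% and 58.2%, and the adaptor Sh3kbp1 at 80.2%. The high value of Spry2 in control liver 5 was 2.08 FPKM against at most 0.940 in the other control livers, and its log2 change of -0.33 was -0.19 without that liver. That of Sh3kbp1, -0.25, was -0.15 without miR-181d-5p liver 4.

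Of 15 growth response genes, 10 were lower, and the median was -0.14. Top2a, a topoisomerase of dividing cells, stood at 4.93 ± 0.645 and 3.60 ± 0.226 FPKM without overlap (SD, n = 5 each), a log2 change of -0.36 (SE 0.08, adjusted p = 0.221 by limma). Mki67, the proliferation marker Ki-67, was at 74.1% of control, Ccnd2 at 74.5% and Ccna2 at 84.9%. Ccnd1, the cyclin of hepatocyte cell cycle entry, and Myc, both named after their values were seen, were at 102.3% and 99.8%. Ccne1, named in the same way, was at 125.2% of control, with the highest log2 change of the list at 0.235. Its groups overlapped and it did not pass (adjusted p = 0.340 by limma). Mst1, which encodes the related ligand macrophage-stimulating protein, stood at 45.2 ± 3.42 and 50.2 ± 3.19 FPKM (SD, n = 5 each), a log2 change of 0.15 that did not pass.

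**Figure D5:**
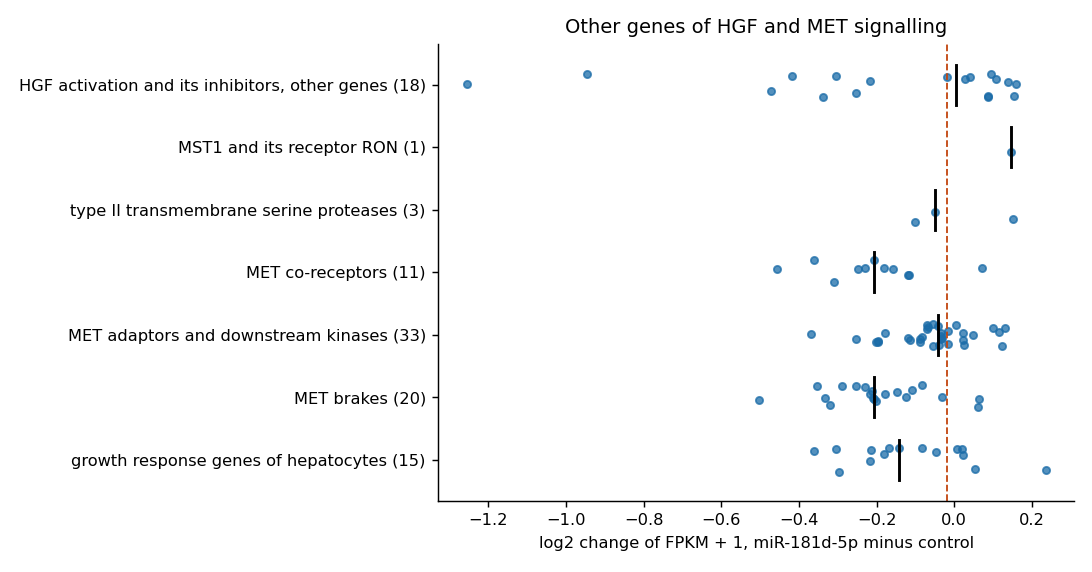
Log2 change of FPKM + 1 (miR-181d-5p minus control) of each tested gene in 7 lists of the pathway, with the number of tested genes in brackets; black ticks are list medians and the dashed line is the median of all genes tested, -0.02. Co-receptors and brakes lie mostly to the left, with medians of -0.21 each, while the adaptors centre at -0.04.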

How the data were processed

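The authors deposited 1 table of FPKM with 10 columns, each assigned to a liver from the group and replicate number that its name carries. Per the labels' protocols, the mirVana kit served for RNA and the TruSeq Stranded mRNA kit for libraries. Per the submitters' processing notes, HISAT2 2.2.1, HTSeq 0.13.5 and DESeq2 1.18.1 were among the tools and the build was mm10; their roles, and whether counting used strand, are not given in the sources used here. Overlapping antisense genes may therefore share reads.

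Whole reads were recovered from the FPKM within 0.02 of a read for 17274 of 17274 genes, which gave library totals of 18985912 to 20657019 reads and the gene length used. FPKM sums ran from 440782 to 502752. A gene entered the test when its mean over the livers reached 0.5 FPKM; values were fitted as log2(FPKM + 1) with limma 3.58.1 in R 4.3.3 (group as the term, mean-variance trend, two-sided, Benjamini-Hochberg at 0.05 over all genes). For low genes, Spint1 among them, a log2 change on this scale is smaller than the change in FPKM. The limma fit and the read recovery were tested on simulated data. Correlations used deviations from group means and all 14400 orderings within groups. The pairwise correlations among the members and the relation with gene length were added after the data were seen. Python 3.11.15 was used for the rest.

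The members and lists were chosen with earlier results of these data known. Named genes are the members, up to 4 genes of each pathway list with the smallest p, the 5 genes most like Hgf and the 3 most like each other member by r (mean of at least 1 FPKM; predicted genes, RIKEN clones and pseudogenes left out), and up to 3 markers of a list by level; others are said to be named after their values were seen. Every pair of livers within a group differed by more than sampling noise (chi-square per degree of freedom at least 9.50). The labels give no batch. Alternatives were other pseudocounts, filters, scalings, variance models, a replicate block, voom on recovered reads and leaving out each liver. Removal of a gene length trend (lowess, span 0.3) and voom with quality weights were added after the data were seen.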

Additional observations from a re-analysis of the deposited data

Results flagged for a closer look

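Among the 7 genes and the named pathway genes, 31 in all and 62 groups of 5 livers, 4 groups held a liver far from the other 4 by Dixon's criterion; chance alone sets apart about 1 in 20 groups. No group of the 7 genes was among them. Thbs1 stood at 47.7 FPKM in control liver 5, against at most 13.3 FPKM in the other control livers. Spry2 stood at 2.08 FPKM in the same liver, against at most 0.940 FPKM. Top2a was 6.06 FPKM in control liver 2, against at most 4.72 FPKM. Ccnd2 was lowest in miR-181d-5p liver 4 at 2.44 FPKM, against at least 2.67 FPKM in the other 4.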

How the results depend on the processing

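The log2 changes of the 7 genes kept their sign under all 24 alternatives: Hgf ran from -0.70 to -0.56, St14 from -0.74 to -0.415, Spint1 from -0.58 to -0.29, Met from -0.18 to -0.015, Hgfac from 0.02 to 0.08, Hpn from 0.04 to 0.11 and Spint2 from 0.08 to 0.17. The number of genes past the threshold, 0 by limma (1768 unadjusted), was 1 with a replicate block (Ccn2, 1220 unadjusted) and 2 by voom with quality weights (Inhbb and Jdp2), and ran from 0 to 3 when a liver was left out, with 3 without control liver 1 and 1 each without control liver 5 and miR-181d-5p liver 3; it was 0 in the other alternatives. Without a liver the genes were Inhbb, Jdp2 and Slc35d1 (control liver 1), AA986860 (control liver 5) and Npy (miR-181d-5p liver 3). No pathway gene passed in any alternative. The replicate numbers are shared between groups by name alone: same-numbered livers correlated at -0.283 to 0.015 in their deviations, and no liver correlated best with the liver of its own number. Genes with groups that do not overlap numbered 298, and 341 to 726 without a liver. Leaving out a liver cannot make separated groups overlap, so Hgf had to stay among them and says nothing here. St14 joined without miR-181d-5p liver 3 and Spint2 without control liver 4. The number of marker pairs past the threshold, 1, was 0 with median of ratios size factors and 0 to 1 without a liver; without miR-181d-5p liver 3 the pair past it was Spint2 with lymphocyte markers (r 0.893, adjusted p = 0.0389 by exact permutation), not St14 with cholangiocyte markers. The correlation of St14 with Spint1 was not run under the alternatives. Reads limit St14 and Spint1 most.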

Other observations

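Matriptase and hepsin belong to the type II transmembrane serine proteases, of which 12 further members are in the table. Tmprss6, the protease that restrains hepcidin in hepatocytes, was the most abundant of them. It stood at 117 ± 4.43 FPKM under the control vector and 130.2 ± 5.59 FPKM under miR-181d-5p (SD, n = 5 each), without overlap and without a pass by limma (log2 change 0.15, SE 0.06, adjusted p = 0.293). Tmprss2 stood at 6.51 ± 0.997 and 6.24 ± 0.863 FPKM and Tmprss4 at 1.16 ± 0.200 and 1.06 ± 0.546 FPKM, and both differences changed sign when certain single livers were left out. The other 9 lay below the filter, with Corin highest at a mean of 0.116 FPKM and Tmprss11f listed at 0. Mst1r, which encodes the receptor of Mst1, was also below the filter at a mean of 0.114 FPKM, so its ligand was measured without it.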
